A study of Mus musculus with 80 samples.

Results

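The 10 genes described here belong to the integrated stress response and to serine synthesis: Atf4, Ddit3, Trib3, Chac1, Sesn2, Slc7a11, Asns, Psat1, Phgdh and Pck2. They were chosen by symbol, and the rule uses no measured values, but the choice was made with earlier results of these data known. All 10 were found among the 22556 genes in the expression tables. In the integrated stress response, kinases that sense amino acid shortage, unfolded protein or other stress phosphorylate the translation factor eIF2, which lowers protein synthesis in general while the ATF4 mRNA is translated more. ATF4 is a transcription factor that binds target genes for amino acid synthesis, amino acid uptake, tRNA charging and redox balance. Because it acts mainly through translation of its mRNA, the level of Atf4 RNA and the levels of its target RNAs can move separately.

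Chromatin-associated RNA sequencing (ChrRNA-seq) was used on mouse embryonic stem (mES) cells grown on feeders, to follow silencing of the X chromosome by Xist RNA after acute loss of proteins that act on m6A or on nuclear RNA decay. All lines are of a Mus castaneus x 129 background and carry a TetOn promoter in place of the Xist promoter, through which doxycycline (Dox) induces Xist. In the METTL3, ZFC3H1 and transgene lines this promoter is on the castaneus X, whereas in the YTHDC1 and ZCCHC8 lines it is on the 129 X and Xist also carries a Bgl stem-loop array, so these lines differ in the Xist allele as well as in the tagged protein. In the degron lines METTL3 (the m6A writer), YTHDC1 (a nuclear m6A reader), ZCCHC8 (of the nuclear exosome targeting complex, NEXT) or ZFC3H1 (of the poly(A) tail exosome targeting complex, PAXT) carries an FKBP12 tag, through which the small molecule dTAG-13 brings about loss of the protein. Each line was sequenced in 4 conditions: untreated, dTAG alone (26 h in the sample titles), Dox for 24 h, and dTAG for 2 h followed by dTAG with Dox for 24 h. The controls therefore carry the tagged protein and the TetOn promoter too. The replicates of a degron line are separate clones: G4 and H1 (N-terminal tag), C3 and H5 (C-terminal tag) for METTL3, Y9F and Y12H for YTHDC1, Z4F and Z12H for ZCCHC8, and 8H and 11A for ZFC3H1. YTHDC1 has a second experiment on the same clones, and its experiment 1 shares a table with ZCCHC8. The transgene lines derive from METTL3 degron clone H5, with GFP-METTL3 placed at Rosa26 either as wild type (WT) or with the D395A change in its catalytic site. Either form was studied as 1 XX clone, which has 2 X chromosomes, and 1 clone labelled XiO, and the 2 replicates are experiments on that clone, each split into the 4 conditions from 1 batch of cells. By the paper's definition, XiO clones keep the inactive X alone, with no active X detected.

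Among the 10 genes, the promoter sequences of Pck2, which was lower in most degron lines, and of Asns, the gene of this group with the largest counts, are shown with the element that ATF4 is known to bind together with C/EBP proteins (TGATGNAA, either strand). The capitals mark the match, and each run spans 250 bases before to 50 bases after the start site in RefSeq (GRCm38.p6), on the gene's strand. Pck2 lies at chr14:55540266-55550017 on the plus strand and its printed promoter at chr14:55540016-55540315, while Asns lies at chr6:7675171-7693182 on the minus strand with its printed promoter at chr6:7693160-7693459.
Pck2 promoter: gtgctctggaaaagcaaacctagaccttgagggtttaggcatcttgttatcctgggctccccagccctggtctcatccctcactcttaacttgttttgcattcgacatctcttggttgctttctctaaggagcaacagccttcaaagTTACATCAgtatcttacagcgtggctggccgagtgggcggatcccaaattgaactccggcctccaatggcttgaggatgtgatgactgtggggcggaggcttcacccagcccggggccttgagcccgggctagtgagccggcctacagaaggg
Asns promoter: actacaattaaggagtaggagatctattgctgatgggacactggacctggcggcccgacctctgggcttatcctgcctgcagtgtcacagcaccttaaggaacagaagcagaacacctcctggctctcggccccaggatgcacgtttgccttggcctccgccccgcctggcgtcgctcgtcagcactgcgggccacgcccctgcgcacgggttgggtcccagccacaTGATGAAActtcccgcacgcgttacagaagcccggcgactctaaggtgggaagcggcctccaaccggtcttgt
In Pck2 the match TTACATCA is on the opposite strand and begins 103 bases upstream of the start site, and in Asns the match TGATGAAA begins 23 bases upstream. A match was present in the promoters of 5 of the 10 genes (Trib3, Asns, Chac1, Pck2 and Slc7a11), against 3.97% of 32851 promoters of the same length. The narrower form TGATGCAA, which the search for TGATGNAA includes, was found in Chac1 and Slc7a11 and in 0.895% of all promoters. Neither of the cyclic AMP response element forms TGACGTCA (1.79% of all promoters) and TGACGTAA (0.499%) occurred in any of the 10. These are matches of letters and not measured binding sites.

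The 80 libraries held between 8.58 and 34.4 M reads (22.5 M at the median), and the lowest count of any of the 10 genes was 5 reads, for Slc7a11. Values are in CPM, read counts scaled to the size of the library, over whole gene spans with introns. Xist was at 1.22 to 738 CPM in the 40 libraries without Dox and at 1383 to 8948 CPM in the 40 with Dox. dTAG-13 acts on protein, so RNA of the tagged genes is no check of the labels. Zfc3h1 RNA itself was at 250 to 294 CPM without dTAG and at 317 to 353 CPM with it. The stem cell markers Pou5f1 (12.8 to 101 CPM) and Nanog (21.5 to 87 CPM) were present in all libraries, while Sox2 is listed at 0 in all 80. The sum of 10 fibroblast markers was at 2.02 to 34.7 CPM, with the highest sums in the WT XiO clone (23.5 to 34.7 CPM). Tagln reached 20.9 CPM, and no other of these markers passed 5.00 CPM in any library. The summed stem cell markers were lowest in the WT XiO clone, at 617 to 805 CPM, against 1006 CPM or more in the other lines. Whether the fibroblast marker RNA came from feeder cells was not tested. In bulk RNA of this kind, fewer cells of a type and less RNA per cell cannot be told apart.

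Per kilobase of gene span, the 10 genes differed widely in untreated cells. Atf4 was highest, with a median of 20.6 CPM per kb over the 20 untreated libraries, followed by Asns (11.3) and Psat1 (5.04). Sesn2 (2.66), Ddit3 (1.71), Phgdh (1.58), Pck2 (1.14), Chac1 (0.903) and Trib3 (0.828) followed in that order, and from Atf4 to Trib3 the ranges of neighbours in this order overlapped. Slc7a11 was lowest at 0.0340 CPM per kb, with a highest library (0.0757) below the lowest library of each of the other 9 genes. Between untreated libraries the level varied most for Slc7a11, with a 17.3-fold spread, and for Chac1 (10.7-fold). Pck2 (4.94-fold), Asns (4.70-fold) and Ddit3 (4.42-fold) were next, and Sesn2 varied least (2.04-fold). In the XX transgene table the 2 experiments on the WT clone stood apart: untreated Asns was at 249 CPM in the first and 106 CPM in the second, Pck2 at 26.4 and 8.61 CPM, and Chac1 at 4.82 and 1.11 CPM.

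**Figure D1:**
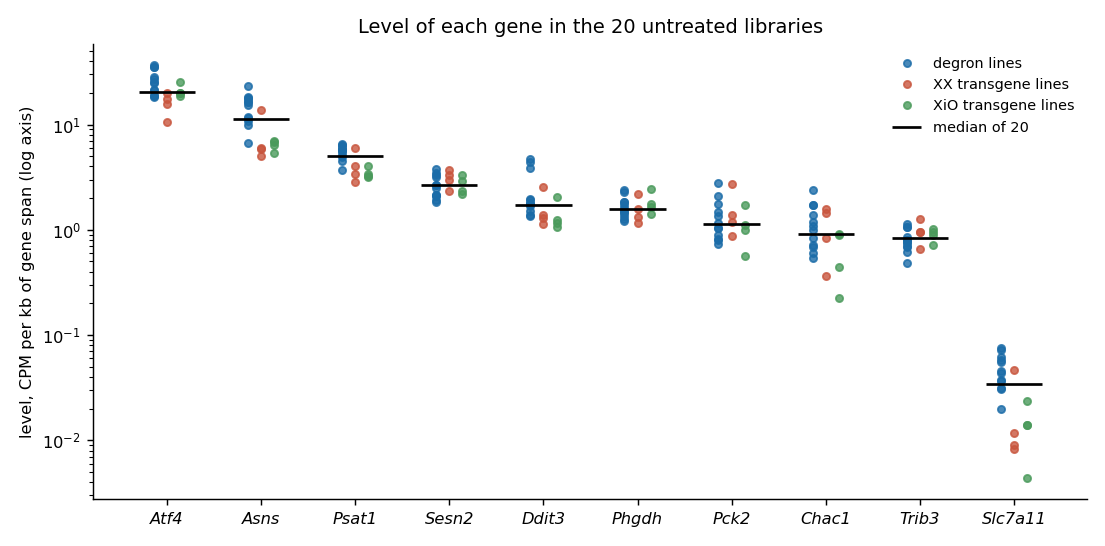
Level of each gene in the 20 untreated libraries, in CPM per kb of gene span on a log axis, with 1 point per library coloured by kind of line and a bar at the median of 20. Atf4 lies at the top (median 20.6) and Slc7a11 at the bottom (median 0.0340), and Chac1 and Slc7a11 spread the most.

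Depletion of ZFC3H1 without Dox lowered Pck2, the mitochondrial enzyme that makes phosphoenolpyruvate, and Psat1, the aminotransferase of serine synthesis. These 2 of the 10 genes were called, where 2.15% of 13544 genes were called in this comparison and 0.399% were called lower. Pck2 was at 11.4 CPM (clone 8H) and 27.0 CPM (11A) untreated, and at 6.63 and 13.2 CPM with dTAG. Each clone was lower with dTAG, but the groups overlap, because 11A with dTAG stayed above 8H untreated. Within clones the change was -0.84 ± 0.15 (SE) on the log2(CPM + 1) scale, with an adjusted p of 0.0184. Psat1 was at 89.5 and 116 CPM untreated and at 66.5 and 82.6 CPM with dTAG, 2 groups that do not overlap, and its change was -0.46 ± 0.088 (adjusted p = 0.0279).

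With Dox, depletion of ZFC3H1 lowered Pck2 again and no other gene of the 10 was called, where 3.15% of genes were called and 0.62% lower. Pck2 was at 14.5 CPM (8H) and 32.0 CPM (11A) with Dox and at 8.44 and 13.8 CPM with dTAG+Dox, so that the groups did not overlap. The change was -0.94 ± 0.15 (adjusted p = 0.00948). Psat1 was at 89.0 and 118 CPM with Dox and at 79.2 and 86.2 CPM with dTAG+Dox, which missed the threshold (-0.31, adjusted p = 0.0952). The dTAG and dTAG+Dox comparisons use different libraries of the same 2 clones.

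**Figure D2:**
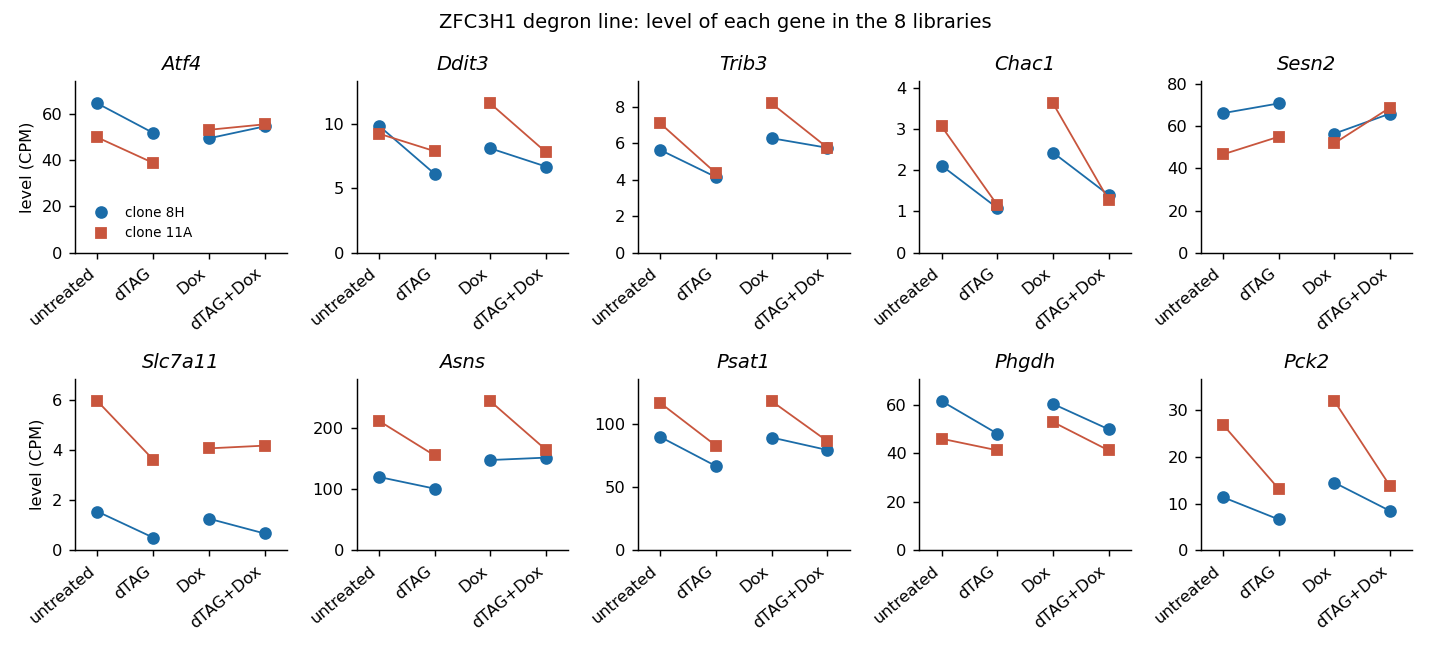
Level of each of the 10 genes in CPM in the 8 ZFC3H1 libraries, with a point per library, the clone by colour and shape, and lines joining the 2 libraries of a clone that a dTAG comparison sets against each other (axes start at 0). Pck2 is lower with dTAG in both clones and both comparisons, and Sesn2 is the gene that lies higher with dTAG in all 4 pairs.

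Of the other genes, the stress effectors lay lower in the ZFC3H1 line without passing the test. Chac1, an enzyme that degrades glutathione, was at 2.11 and 3.06 CPM untreated and 1.08 and 1.16 CPM with dTAG, and at 2.43 and 3.62 CPM with Dox and 1.40 and 1.27 CPM with dTAG+Dox. Neither pair of Chac1 groups overlaps, and the differences were -0.75 (adjusted p = 0.0693) and -0.77 (adjusted p = 0.0536). Slc7a11, the cystine and glutamate exchanger, was at 1.55 and 5.95 CPM untreated and at 0.510 and 3.62 CPM with dTAG (-0.67, adjusted p = 0.086), while with Dox it was at 1.26 and 4.07 CPM against 0.673 and 4.18 CPM with dTAG+Dox (-0.20, adjusted p = 0.625). For Trib3, a pseudokinase that restrains ATF4, the differences were -0.48 (adjusted p = 0.155) and -0.28 (adjusted p = 0.403). For Ddit3, which encodes the stress transcription factor CHOP, they were -0.41 and -0.38, with adjusted p of 0.239 and 0.247. Phgdh, the first enzyme of serine synthesis, differed by -0.25 and -0.31 (adjusted p = 0.198 and 0.0993), and Asns, which makes asparagine, by -0.35 and -0.26 (adjusted p = 0.239 and 0.354). Atf4 itself differed by -0.33 without Dox (adjusted p = 0.230) and by 0.10 with Dox (adjusted p = 0.752). Sesn2, a leucine-binding inhibitor of mTORC1 that p53 also induces, was the exception, at 66.2 and 46.7 CPM untreated against 70.8 and 55.0 CPM with dTAG (0.16, adjusted p = 0.563), and at 56.5 and 52.0 CPM with Dox against 66.0 and 68.9 CPM with dTAG+Dox (0.31, adjusted p = 0.214).

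Taken as a group without a test, 9 of the 10 genes lay below 0 for dTAG and 8 of 10 for dTAG+Dox after ZFC3H1 depletion. The median difference was -0.43 and -0.29, against -0.01 and -0.00 over all genes tested. The ZFC3H1 calls depended on single libraries. Psat1 lost its call when any of the 4 libraries of the comparison was left out (adjusted p from 0.0574 without untreated 8H to 0.306 without dTAG 11A). Pck2 with dTAG kept its call without untreated 8H (adjusted p = 0.0319) and lost it without dTAG 8H (0.123), untreated 11A (0.126) or dTAG 11A (0.277). Pck2 with dTAG+Dox kept it without dTAG+Dox 8H (0.00604) and lost it without Dox 8H (0.0717), Dox 11A (0.183) or dTAG+Dox 11A (0.0803). When only the groups compared entered the fit, more genes were called over the whole table too: 6 of the 10 were called lower with dTAG, where 6.35% of all genes were called and 2.22% lower, and with dTAG+Dox 5 were called lower and Sesn2 higher, where 15.9% were called and 7.11% lower.

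Among related genes, the calls after ZFC3H1 depletion were most numerous in the amino acid transporters with dTAG+Dox. Of 10 amino acid transporter genes, all lay below 0 with dTAG and 1 was called lower, Slc3a2 (-0.40, adjusted p = 0.0493), which encodes the heavy chain that Slc7a11 pairs with. With dTAG+Dox 4 of the 10 transporters were called lower, where 0.62% of all genes were, among them the glycine transporter Slc6a9 (-0.78), the neutral amino acid transporter Slc1a4 (-0.70) and the glutamine transporter Slc1a5 (-0.48). Of 20 cytoplasmic aminoacyl-tRNA synthetases, 1 was called lower with dTAG, Aars (-0.40), and 0 with dTAG+Dox, while 18 and 16 of them lay below 0. Of 11 serine, proline and folate enzymes, 0 were called with dTAG and 1 with dTAG+Dox, Aldh18a1 of proline synthesis (-0.51). Of 12 other ATF4-regulated genes tested, 0 were called with dTAG and 1 with dTAG+Dox, the secreted protein gene Stc2 (-0.53), and of 14 genes for eIF2 kinases and regulators 0 were called in either comparison. By contrast in sign, the p53 target Mdm2 rose by 0.62 with dTAG and 0.64 with dTAG+Dox, and Trp53inp1, another p53 target, rose by 0.56 with dTAG+Dox, out of 8 p53 target genes. Of all genes, 1.75% were called higher with dTAG and 2.53% with dTAG+Dox. None of the 11 unfolded protein response genes and none of the 7 NRF2 target genes tested by limma passed the threshold in either comparison, where 2193 and 2450 of all genes had an unadjusted p under 0.05.

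Loss of ZCCHC8 lowered the 4 enzyme genes, in a line where far more genes were called. With dTAG, 4 of the 10 were called lower, where 36.1% of 13857 genes were called and 16.2% lower. With dTAG+Dox 5 were called lower, where 40.4% of genes were called and 15.2% lower. Pck2 was at 10.2 CPM (clone Z4F) and 8.70 CPM (Z12H) untreated and at 3.99 and 4.87 CPM with dTAG, and it changed by -0.94 ± 0.19 (adjusted p = 0.000921). With Dox it was at 15.5 and 10.4 CPM, and with dTAG+Dox at 7.29 and 4.67 CPM, and it changed by -1.0 ± 0.19 (adjusted p = 0.000435). The Pck2 groups did not overlap in either comparison.

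Asns was at 276 and 331 CPM in untreated Z4F and Z12H and at 172 and 270 CPM with dTAG, and at 301 and 392 CPM with Dox and 172 and 218 CPM with dTAG+Dox. The changes were -0.49 ± 0.073 (adjusted p = 8.38e-05) and -0.83 ± 0.073 (adjusted p = 2.64e-07), and the groups did not overlap. The difference between these changes did not pass the test (-0.34, adjusted p = 0.264). Psat1 was at 130 and 126 CPM untreated against 96.8 and 96.6 CPM with dTAG, and at 143 and 136 CPM with Dox against 113 and 90.4 CPM with dTAG+Dox, with changes of -0.41 and -0.46. Phgdh was at 42.9 and 33.8 CPM untreated against 32.2 and 24.8 CPM with dTAG, and at 53.8 and 37.5 CPM with Dox against 42.2 and 31.9 CPM with dTAG+Dox. Its changes were -0.42 and -0.29, each clone was lower in both comparisons, and only the untreated and dTAG groups did not overlap. The fifth gene called with dTAG+Dox was Slc7a11, at 3.13 and 4.17 CPM with Dox and 2.47 and 1.83 CPM with dTAG+Dox (-0.56, adjusted p = 0.0335).

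Atf4, Ddit3, Trib3, Chac1 and Sesn2 were not called by either depletion comparison of ZCCHC8, and their differences ranged from -0.34 (Chac1, dTAG) to 0.14 (Sesn2, dTAG+Dox). Without clone Z4F, 4 genes were called in each comparison, and Phgdh lost its call with dTAG+Dox (-0.23, adjusted p = 0.147). Without clone Z12H, 7 genes were called with dTAG and 4 with dTAG+Dox, and Slc7a11 lost its call (-0.25, adjusted p = 0.359).

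In the same line, 19.9% of all genes were called higher and 16.2% lower with dTAG, and 25.2% and 15.2% with dTAG+Dox. There 8 of the 11 serine, proline and folate enzymes were lower with dTAG and 9 with dTAG+Dox, among them the mitochondrial serine hydroxymethyltransferase Shmt2 (-0.54 with dTAG), Aldh18a1 (-0.57 and -0.72) and Aldh1l2 (-0.80 with dTAG+Dox). Psph, which catalyses the last step of serine synthesis, was higher, by 0.58 and 0.67. Of the 20 aminoacyl-tRNA synthetases 14 were called lower in each comparison, including Gars (-0.53 and -0.59) and Sars (-0.40 and -0.47). Of the 10 transporters 6 were lower with dTAG, and with dTAG+Dox 5 were lower and 1 higher. Slc6a9 differed by -0.79 and -0.69 and the cationic amino acid transporter Slc7a3 by -0.58 and -0.72. Gcn1l1 and Eif2ak4, which encode an activator of the amino acid sensing kinase GCN2 and that kinase, were among 3 genes lower with dTAG and 5 lower with dTAG+Dox of the 14 for eIF2 kinases and regulators (Gcn1l1 -0.56 and -0.42). The other ATF4-regulated genes were split, with 1 of 11 higher and 2 lower for dTAG and 2 higher and 3 lower for dTAG+Dox. Apart from the 3 lower with dTAG+Dox, these counts lie near or below the shares of all genes. The 3 of 14 eIF2 kinase and regulator genes lower with dTAG also lie near that share, so these counts are no result about the lists. Ddit4, an inhibitor of mTORC1, was higher by 0.48 and 0.60.

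Depletion of YTHDC1 lowered Asns, Psat1 and Phgdh in both experiments, with and without Dox. In experiment 1, 4 of the 10 genes were called lower with dTAG (Asns, Psat1, Phgdh and Pck2), where 19% of 13857 genes were called and 8.45% lower. With dTAG+Dox 3 were called lower (Asns, Psat1 and Phgdh), where 15.5% of genes were called and 5.69% lower. In experiment 2, Ddit3 and the 4 enzyme genes were called lower in both comparisons. That is 5 of the 10 genes, where 17.8% of 13722 genes were called with dTAG and 9.42% lower, and 14.7% with dTAG+Dox and 6.34% lower.

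Asns was at 294 CPM (clone Y9F) and 323 CPM (Y12H) untreated in experiment 1 and at 202 and 214 CPM with dTAG, and at 328 and 311 CPM with Dox against 230 and 245 CPM with dTAG+Dox. In experiment 2 it was at 179 and 196 CPM untreated against 124 and 135 CPM with dTAG, and at 219 and 231 CPM with Dox against 156 and 173 CPM with dTAG+Dox. None of these 4 pairs of groups overlapped. The changes were -0.56, -0.43, -0.53 and -0.45 in that order, with adjusted p between 4.94e-06 and 0.000962.

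Pck2 was at 8.00 and 7.09 CPM untreated and 5.81 and 3.70 CPM with dTAG in experiment 1 (-0.59, adjusted p = 0.0344), and at 8.95 and 11.4 CPM with Dox and 6.79 and 6.98 CPM with dTAG+Dox (-0.50, adjusted p = 0.0824). In experiment 2 it was at 17.2 and 14.5 CPM untreated, 11.5 and 11.7 CPM with dTAG, 21.9 and 16.6 CPM with Dox and 14.2 and 11.7 CPM with dTAG+Dox, with changes of -0.42 (adjusted p = 0.0123) and -0.53 (adjusted p = 0.00253). Pck2 was thus lower with dTAG in both clones in each experiment. Ddit3 in experiment 2 was at 9.71 and 10.6 CPM untreated and 7.36 and 7.64 CPM with dTAG (-0.39, adjusted p = 0.03), and at 9.84 and 10.1 CPM with Dox and 8.31 and 6.85 CPM with dTAG+Dox (-0.36, adjusted p = 0.0499). In experiment 1 its differences were -0.05 and -0.09 and neither was called. Psat1 changed by -0.37, -0.27, -0.27 and -0.25 over the 4 comparisons, and Phgdh by -0.44, -0.36, -0.31 and -0.24.

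These counts also moved with single clones or libraries. In experiment 1, leaving out Y9F left 1 gene called in each comparison, and leaving out Y12H left 3 with dTAG and 1 with dTAG+Dox. In experiment 2, 3 genes were called with dTAG without untreated Y9F, 1 without dTAG Y9F, 1 without untreated Y12H and 5 without dTAG Y12H. With dTAG+Dox, 1 was called without Dox Y9F, 3 without dTAG+Dox Y9F, 2 without Dox Y12H and 2 without dTAG+Dox Y12H.

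Of the 10 genes 1, Slc7a11, was called for a different response to ZCCHC8 and YTHDC1 depletion in the table they share, a smaller share than among all genes. Its dTAG effect, averaged over the comparisons without and with Dox, was 0.90 ± 0.20 lower on the log2 scale after ZCCHC8 loss (adjusted p = 0.00167), a test in which 43.9% of genes were called and 20.5% lower. With YTHDC1 depleted in experiment 1 Slc7a11 was at 2.86 and 2.95 CPM untreated and 4.76 and 3.97 CPM with dTAG (0.45, adjusted p = 0.127), and at 2.29 and 2.80 CPM with Dox and 3.57 and 3.68 CPM with dTAG+Dox (0.39, adjusted p = 0.215). With ZCCHC8 depleted it was at 3.44 and 5.64 CPM untreated and 2.00 and 4.63 CPM with dTAG (-0.40, adjusted p = 0.127). Without clone Y12H 2 of the genes differed between the lines, and without clone Z12H 3 did. The difference for Pck2 (-0.43, adjusted p = 0.0713) and Asns (-0.16, adjusted p = 0.0879) did not pass.

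**Figure D3:**
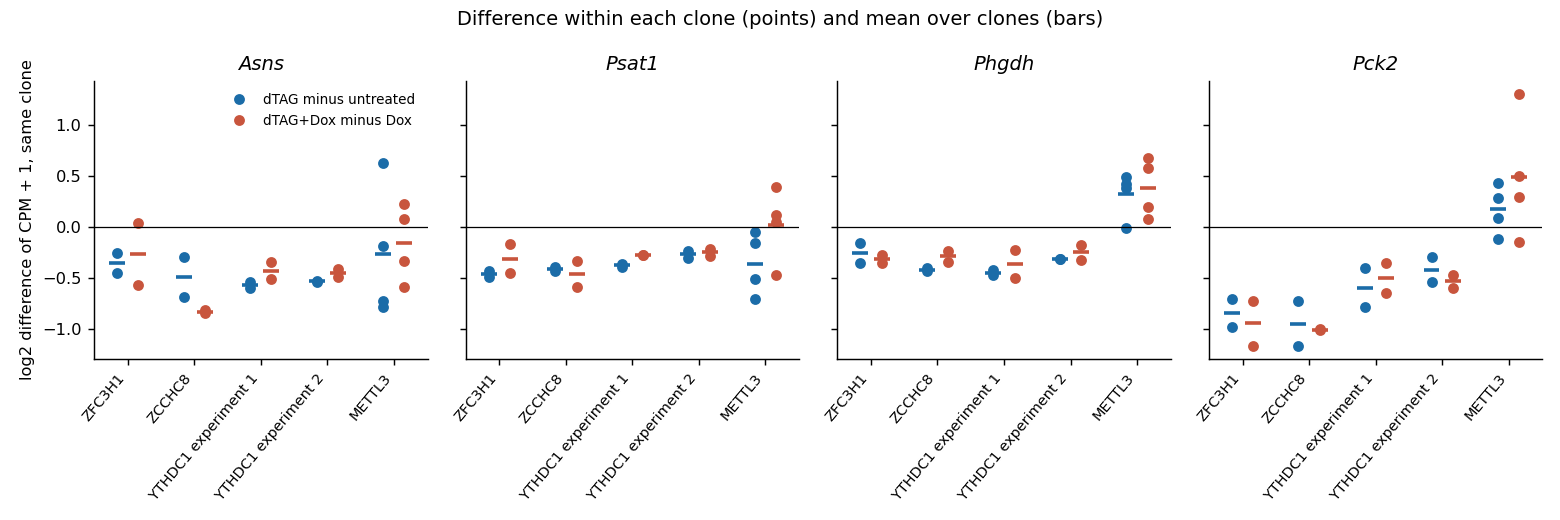
Difference with dTAG within each clone (points, log2 of CPM + 1) and its mean over clones (bars) for the 4 enzyme genes in each degron line, without Dox in blue and with Dox in red. In the ZFC3H1, ZCCHC8 and YTHDC1 lines all points but 1, Asns of ZFC3H1 with Dox, lie below 0, while over the 2 comparisons the METTL3 clones lie on both sides for each gene. Within a comparison, all METTL3 clones lie below 0 for Psat1 without Dox and above 0 for Phgdh with Dox.

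Outside the 10 genes, YTHDC1 depletion lowered 4 and 2 of the 11 serine, proline and folate enzymes in experiment 1 (dTAG and dTAG+Dox), and in experiment 2 it lowered 3 in each and raised 1 with dTAG+Dox. Of all genes, 8.45% and 5.69% were called lower in experiment 1 and 9.42% and 6.34% in experiment 2, where 8.32% were called higher with dTAG+Dox. Shmt2 differed by -0.50 and -0.31 in experiment 1 and by -0.48 and -0.35 in experiment 2, and the folate enzyme Mthfd1l by -0.31 and -0.29, then -0.30 and -0.20. Among the transporters Slc6a9 fell in all 4 comparisons (by 0.60 to 0.82) and the arginine transporter Slc7a1 by 0.31 to 0.54, while the glutamine transporter Slc38a2 rose by 0.47 and 0.31 in experiment 1 and by 0.33 with dTAG in experiment 2. Of the 20 aminoacyl-tRNA synthetases 4 and 2 were lower in experiment 1 and 2 and 1 in experiment 2. The counts of experiment 2 lie near the shares of all genes called lower, so they are no result about the synthetases. Of the other ATF4-regulated genes, the growth factor gene Vegfa was lower in each comparison (-0.56, -0.53, -0.61 and -0.66). Mdm2 rose in all 4 comparisons, by 0.44 to 0.64, and Dnajb9, a chaperone gene of the unfolded protein response, rose with dTAG in both experiments (0.68 and 0.37). The genes named here are the called ones with the largest changes, so they do not stand for their whole lists. The transporter Slc1a4, for example, was not called in experiment 1 (0.0007 with dTAG and 0.09 with dTAG+Dox).

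After loss of METTL3 the enzyme genes were not called by limma on the CPM values as deposited. With dTAG, Psat1 lay lower in G4, H1, C3 and H5 (-0.51, -0.70, -0.16 and -0.05), and it passed the threshold after the scaling described below. Phgdh differed by 0.38, 0.49, -0.01 and 0.42 in the same clones. The METTL3 line was not tested against the other degron lines. With dTAG 1 of the 10 genes was called, Ddit3, where 23.3% of 13367 genes were called and 6.34% lower. Ddit3 was at 25.7, 24.1, 10.8 and 21.0 CPM in untreated G4, H1, C3 and H5, and at 7.72, 5.49, 11.1 and 16.7 CPM with dTAG. It was lower in 3 of the 4 clones, most in the N-terminally tagged G4 and H1, and about level in C3, and the groups overlap. The change was -0.96 ± 0.30 (adjusted p = 0.0377), and the call was lost without G4 (adjusted p = 0.212), H1 (0.199) or H5 (0.0867) and kept without C3 (0.0107). With Dox alone Ddit3 was at 8.86, 8.27, 7.74 and 12 CPM, below the untreated level of the same clone in all 4, but the test missed the threshold (-1.02, adjusted p = 0.174). The dTAG and Dox comparisons share the untreated libraries. With dTAG+Dox Ddit3 was at 7.28, 5.35, 12.5 and 10.9 CPM. Against Dox in the same clones it differed by -0.25, -0.55, 0.62 and -0.12, and it was not called. Ddit3 overlaps the end of Mars on the other strand, and reads had been counted by strand.

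With dTAG+Dox against Dox 0 of the 10 genes were called by limma in METTL3 cells, where 10.5% of genes were called and 4245 had an unadjusted p under 0.05, and edgeR called 0 too. Phgdh lay higher, at 55.5, 50.1, 33.2 and 34.6 CPM with Dox and 64.0, 52.9, 53.6 and 52.4 CPM with dTAG+Dox (0.38, adjusted p = 0.0821). Pck2 was at 22.9, 12.6, 9.90 and 11.8 CPM with Dox and 20.6, 15.7, 26.0 and 17.1 CPM with dTAG+Dox (0.49, adjusted p = 0.141), with most of that difference in clone C3. The median over all genes was itself 0.21 and 0.23 above 0 in the METTL3 comparisons. After scaling by the median ratio of genes, the differences with dTAG turned from 0.17 to -0.04 for Pck2, from 0.21 to -0.03 for Atf4, from 0.20 to -0.03 for Sesn2 and from 0.02 to -0.19 for Trib3, and Psat1 went from -0.36 (adjusted p = 0.0801) to -0.59 (adjusted p = 0.00891). On that scale Ddit3 was at -1.18 (adjusted p = 0.0126). The share of reads in genes under 3 kb ranged from 0.498% to 4.57% over the METTL3 libraries, and its part in these results was not tested. These extremes are a compared pair, clone C3 with Dox (0.498%) and with dTAG+Dox (4.57%). In that pair Chac1 differed by 1.55, Atf4 by 1.54, Sesn2 by 1.22 and Trib3 by 1.21. In G4, H1 and H5 Chac1 differed by 0.03, 0.21 and 0.19.

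In METTL3 cells some related genes were called higher with dTAG+Dox, a comparison in which 8.6% of all genes were called higher. Of 12 other ATF4-regulated genes 4 were called higher and 0 lower, among them the autophagy receptor gene Sqstm1 (0.80), Atf5 (0.71) and Cebpg (0.67), the last of which encodes a partner of ATF4. Slc6a9 (0.87) and Slc1a4 (0.57) were higher among the 10 transporters, and Srxn1 (0.86) and Txnrd1 (0.44) among 7 NRF2 targets. After median-ratio scaling 1 of the 12 ATF4-regulated genes, Sqstm1 (0.56, adjusted p = 0.0393), and 1 of the 7 NRF2 targets, Srxn1 (0.67, adjusted p = 0.0293), stayed called higher. The scaled values of Atf5 (0.54), Cebpg (0.42), Slc6a9 (0.64), Slc1a4 (0.32) and Txnrd1 (0.18) missed the threshold. On the same scale, other related genes were called lower. They were 1 of 14 genes for eIF2 kinases and regulators (Eif2ak3, -0.46), 1 of 8 p53 targets (Mdm2, -0.42) and 1 of 10 transporters (Slc7a3, -0.65). So were 2 of 11 unfolded protein response genes, Atf6 (-0.55) and Hsp90b1 (-0.55). With dTAG alone 1 of the 12, Cebpg (0.39), and 0 of the transporters were called.

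**Figure D4:**
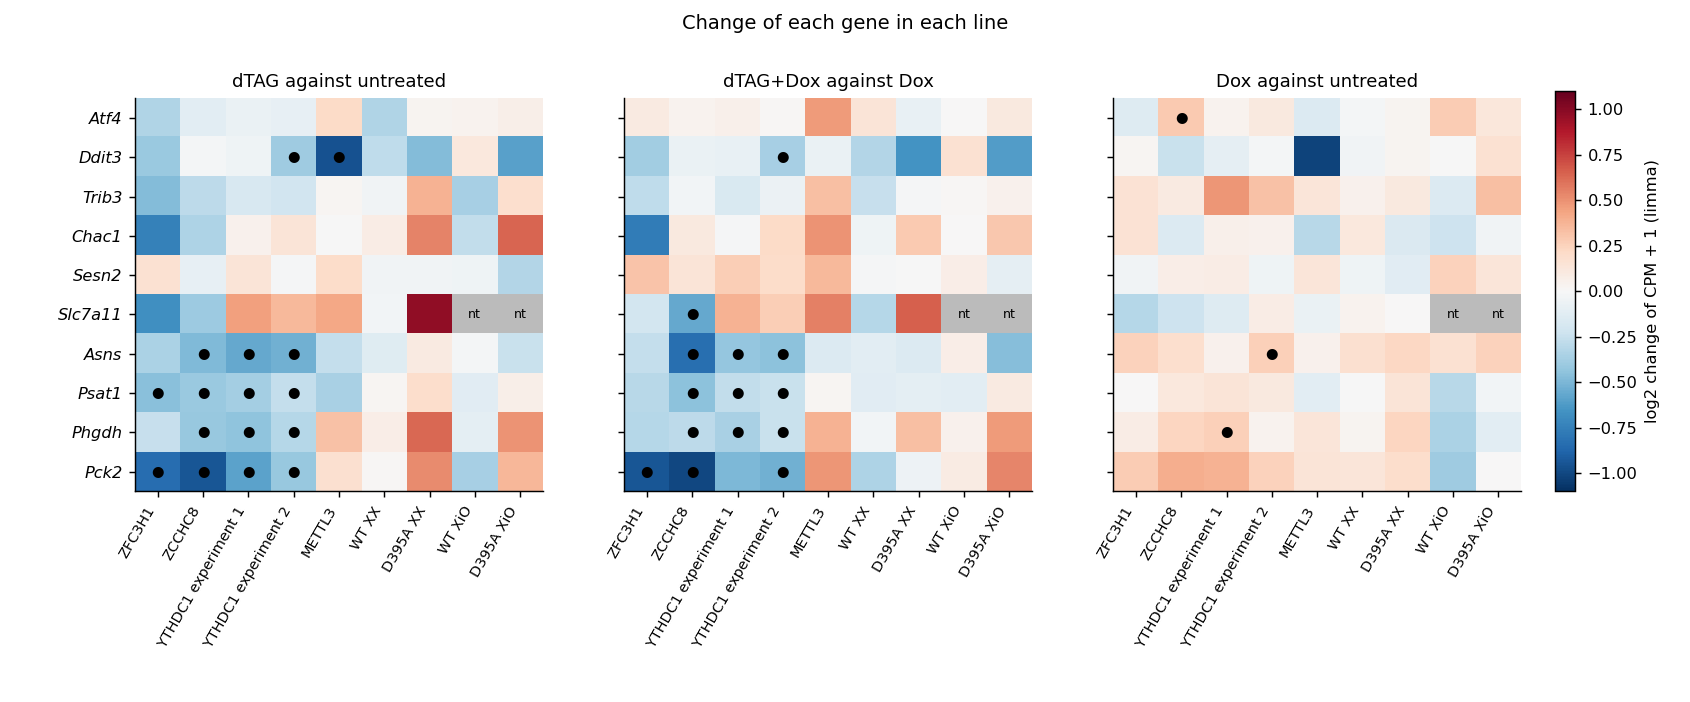
Difference of each gene in each line on the log2(CPM + 1) scale by limma, for dTAG against untreated, dTAG+Dox against Dox, and Dox against untreated, with blue for lower, red for higher, a dot where the adjusted p is under 0.05 (in the transgene lines from the fit without the experiment as block) and nt where the gene was not tested. The dots for depletion lie mostly in the Asns, Psat1, Phgdh and Pck2 rows of the ZFC3H1, ZCCHC8 and YTHDC1 columns, and Dox alone gives 3 dots in all.

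In the transgene lines the calls depended on whether the experiment entered the fit as a block. Without the block 0 of the 10 genes were called by limma in any comparison. For dTAG, 6.01% of 13364 genes were called in the D395A XX clone and 0% in the WT XX clone, and for dTAG+Dox 3.19% and 0%. In XiO cells the shares were 0.402% of 13448 genes and 0% for dTAG and 0.0521% and 0% for dTAG+Dox, for D395A and WT. Genes with an unadjusted p under 0.05 numbered 2842 and 29 for dTAG in XX cells and 1570 and 18 in XiO cells, for D395A and WT. edgeR also called 0 of the 10 there. The median over all genes was 0.12 above 0 for dTAG in both D395A clones. Slc7a11 in the D395A XX clone was at 0.924 and 0.653 CPM untreated (experiments 1 and 2) and at 2.4 and 2.61 CPM with dTAG, groups that do not overlap (0.97 ± 0.59, adjusted p = 0.391). Phgdh was at 31.1 and 41.9 CPM untreated and 51.1 and 62.9 CPM with dTAG in D395A XX (0.64 ± 0.36, adjusted p = 0.348), and at 44.2 and 38.1 CPM against 64.1 and 52.5 CPM in D395A XiO (0.49, adjusted p = 0.494). In the WT clones Phgdh differed by 0.07 (XX) and -0.11 (XiO). Without the block the dTAG effect of D395A minus that of WT did not pass for any of the 10 genes in XX cells or the 9 tested in XiO cells, where 2.63% and 0.0297% of genes were called. Slc7a11 was under the filter on low values in the XiO table, and the standard errors without the block reached 0.70 for Pck2.

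With the experiment as block, limma called 5 of the 10 genes in the D395A XX clone with dTAG, where 37.5% of all genes were called, and 3 with dTAG+Dox, where 29.3% were. In the D395A XiO clone it called 3 of 9 with dTAG (34.4% of all genes) and 4 of 9 with dTAG+Dox (31.1%). These shares of the members lie near those of all genes, so the counts are no result about the members. Phgdh was higher in all 8 dTAG pairs of the D395A clones, each pair being an experiment with or without Dox, by 0.28 to 0.70, with blocked changes of 0.64 ± 0.078 (adjusted p = 1.72e-05) and 0.33 in XX cells and 0.49 and 0.47 in XiO cells. In the WT clones its pairs lay between -0.14 and 0.12. Slc7a11 was called higher in D395A XX cells with dTAG (0.97 ± 0.21, adjusted p = 0.00184) and with dTAG+Dox (0.65, adjusted p = 0.0267). Pck2 was called higher in D395A XX cells with dTAG (0.52, adjusted p = 0.00704) and in D395A XiO cells with dTAG+Dox (0.53, adjusted p = 0.026), the opposite sign to its change in the ZFC3H1, ZCCHC8 and YTHDC1 lines (a difference between tables that was not tested), and in the other 2 of these comparisons it was at -0.06 (XX, dTAG+Dox) and 0.36 (XiO, dTAG). Ddit3 was called lower in both clones and both comparisons, by 0.47 to 0.65, and the remaining calls were Chac1 higher (0.55, XX with dTAG), Sesn2 lower (-0.33, XiO with dTAG) and Asns lower (-0.47, XiO with dTAG+Dox). For the WT clones 0 of the genes and 0% of all genes were called in either dTAG comparison with the block, as without it. The effect of D395A minus that of WT was called, with the block, for Pck2 (0.40), Slc7a11 (0.99) and Phgdh (0.46) in XX cells, where 28.2% of all genes were called, and for Ddit3 (-0.75), Pck2 (0.59), Phgdh (0.51) and Asns (-0.38) in XiO cells, where 28.7% were.

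Dox without dTAG gave few calls among the 10 genes. Every line carries the TetOn promoter, so effects of the drug and of the Xist that it induces cannot be told apart. Dox against untreated called 0 in the ZFC3H1 line, where 1.11% of genes were called and 1784 had an unadjusted p under 0.05, and 0 in METTL3 cells (0.778%, with 1262 at an unadjusted p under 0.05). edgeR called 0 in both too. Atf4 rose in the ZCCHC8 line from 59.9 and 66.1 CPM to 66.2 and 89.9 CPM (0.29, adjusted p = 0.0474), where 10.9% of genes were called. The groups touch, with Z4F with Dox only just above Z12H untreated, and without Z12H the difference was 0.14 (adjusted p = 0.444). Phgdh rose in YTHDC1 experiment 1 from 40.5 and 39.5 CPM to 44.4 and 52.3 CPM (0.26, adjusted p = 0.0392, 12.6% called), and Asns rose in experiment 2 from 179 and 196 CPM to 219 and 231 CPM (0.27, adjusted p = 0.00571, 10% called). Those 2 calls were lost when either clone, or any of the 4 libraries, was left out, and in the other YTHDC1 experiment the differences were 0.04 for Phgdh and 0.05 for Asns. In the transgene lines Dox called 0.232% (D395A XX), 0.00748% (WT XX), 0.58% (D395A XiO) and 1.17% (WT XiO) of genes, and 0 of the 10. With the experiment as block it called Atf4 (0.28) and Phgdh (-0.35) in WT XiO cells, where 12% of genes were called. The single calls in the ZCCHC8 and YTHDC1 lines, 1 of 10 genes each, lie near the shares of all genes called there. Over 20 pairs, each a clone in 1 experiment, Trib3 and Asns were each higher with Dox in 17 and lower in 3. Pck2 was higher in 15 and lower in 5, whereas Slc7a11 was lower in 14 and higher in 6. The pairs share clones, and their signs were not tested.

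With the protein depleted, the number of the 10 genes called for Dox lay near the share of all genes in the ZCCHC8 line and in YTHDC1 experiment 1. Dox raised Atf4 (0.44), Phgdh (0.36) and Sesn2 (0.31) in the ZCCHC8 line, where 29% of genes were called, and Psat1 (0.24) and Phgdh (0.35) in YTHDC1 experiment 1 (13.4%). In YTHDC1 experiment 2 it raised Trib3 (0.47) and Asns (0.34), where 7.87% were called. Without the clone as block 0 of the 10 were called in these 3 cases. Over the 20 pairs of all lines, Atf4 was higher with dTAG+Dox than with dTAG in 18 and lower in 2, and Asns higher in 16 and lower in 4. Ddit3 was lower in 13 and higher in 7, and these signs were not tested. In the transgene clones this comparison called 0 of the 10 and 0.868% (D395A XX), 0.015% (WT XX), 1.47% (D395A XiO) and 1.12% (WT XiO) of all genes, while with the experiment as block it called Atf4 in WT XX cells (0.45, where 3.9% of genes were called) and Sesn2 in D395A XiO (0.36, 14.3%) and WT XiO cells (0.37, 9.59%). In ZFC3H1 (1.11%) and METTL3 (1.49%) cells 0 were called by limma or edgeR (2019 and 1186 genes had an unadjusted p under 0.05). The change of the dTAG effect by Dox was tested too and called 0 of the 10 genes in any line by limma or edgeR, where limma called 0.238% of all genes in ZCCHC8 cells (1295 at an unadjusted p under 0.05), 0.00722% and 0.0219% in YTHDC1 experiments 1 and 2, and 0% elsewhere. In the ZFC3H1 line the largest of these differences were 0.47 ± 0.25 for Slc7a11 and 0.43 ± 0.18 for Atf4 (adjusted p = 0.997 for both), so the effects of ZFC3H1 loss with and without Dox were not shown to differ.

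Across the 80 libraries, each centred on its clone and experiment, the genes followed each other to different degrees, as a description over libraries that share clones, depth and treatments. The closest pairs were Phgdh with Pck2 (Pearson r = 0.80) and Psat1 with Pck2 (0.76), and the lowest was Ddit3 with Phgdh (-0.34). Against the mean of the other 9, Trib3 (0.78), Pck2 (0.77) and Psat1 (0.73) were closest, and Sesn2 (0.17) and Ddit3 (0.13) the least close. Of 12662 other genes, those nearest to the mean of the 10 were the asparaginyl-tRNA synthetase Nars (0.85), the folate enzyme Mthfd2 (0.81), Aldh18a1 (0.76), Pycr1 of proline synthesis (0.75), Cryzl1 (0.74), the threonyl-tRNA synthetase Tars (0.72), Slc1a4 (0.71) and the alanine aminotransferase Gpt2 (0.71). Of these, 7 had a promoter sequence, and the letters TGATGCAA occurred in 3 (Pycr1, Tars and Slc1a4). After ZFC3H1 depletion Nars differed by -0.40 (dTAG, adjusted p = 0.0665) and -0.29 (dTAG+Dox, adjusted p = 0.154), and Mthfd2 by -0.43 (adjusted p = 0.0697) and -0.39 (adjusted p = 0.0797). After ZCCHC8 depletion Mthfd2 fell by 0.53 (adjusted p = 0.00673) and 0.62 (adjusted p = 0.00192), and Nars by 0.30 and 0.39 (adjusted p = 0.0254 and 0.00476). Both genes were picked for moving with the 10 over these same libraries. Their changes and p-values are therefore not independent of those of the 10.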

How the data were processed

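The deposited values are CPM (counts scaled to library size, both alleles), which the authors made with edgeR from strand-specific featureCounts over whole transcripts. Before that, rRNA reads were taken out with bowtie2 and unique STAR alignments to mm10, masked at strain variants, were kept. Of the 6 expression tables, 12 columns could not be tied to a sample and were not used, and the allelic ratio tables were not used. Each deposited CPM value was a whole multiple of the value of 1 read (100% in every library, tolerance 0.02 read), which gave depth. PCR reads without molecular identifiers make depth a guide to counting error only.

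Values were tested as log2(CPM + 1), a scale that understates changes of low genes, with limma 3.58.1 in R 4.3.3 (lmFit, eBayes with trend) leaving out genes whose mean in the fit was under 1 CPM. All 10 genes passed this filter in 5 tables, and Slc7a11 did not in the XiO table. All libraries of a table shared a fit, with the clone as block in degron lines. This pairing comes from the cell line in the labels. In the transgene lines the study's methods say that the wells of a replicate came from one batch of cells, so the experiment pairs its samples (residuals correlated at 0.57 to 0.88), and values with the experiment as block stand beside the unblocked ones. Residuals of a clone correlated at 0.29 to 0.60 (METTL3 clones), 0.37 (YTHDC1 experiment 1), 0.50 (ZCCHC8), 0.74 (YTHDC1 experiment 2) and 0.87 (ZFC3H1). P values are two-sided and Benjamini-Hochberg adjusted over all genes, with calls under 0.05. Clones are independent lines, while transgene replicates are experiments on 1 clone, so p-values there measure only the spread between experiments. No pair of replicates agreed within sampling noise (lowest chi-square per degree of freedom 8.05 over 56 pairs). The 2 YTHDC1 tables have the same column names, and experiment 2 was read from the table whose name marks a second replicate. The treatment field gives 2 h for dTAG alone where titles give 26 h.

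Named genes were the 10, the 3 called genes of each related list with the largest change, and the 8 genes most like the mean of the 10. The 10 genes, the lists and the rules were chosen with earlier results of these data known. The fits were tested on simulated data. Alternatives were a pseudocount of 0.25, no filter, median-ratio scaling, fits with only the groups compared, fits with or without the block, edgeR 4.0.16 (quasi-likelihood) on recovered reads, and leaving out each clone or library.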

Additional observations from a re-analysis of the deposited data

Results flagged for a closer look

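Phgdh in METTL3 cells with dTAG+Dox was at 64.0 CPM in clone G4, while the other 3 clones lay between 52.4 and 53.6 CPM. The gap takes 0.897 of the range, past Dixon's limit for 4 samples. Of 40 groups of 4 examined this was the only one, and chance gives about 1 in 20.

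The dTAG effect on Slc7a11 differed between ZCCHC8 and YTHDC1 cells by -0.90 (adjusted p = 0.00167, limma), in a test where 43.9% of all genes were called.

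In 13 other cases every clone of a line moved one way with dTAG and every clone of another line the opposite way. These lines sit in separate tables, and the differences were not tested. For Chac1 with dTAG, ZCCHC8 (-0.34) minus YTHDC1 experiment 2 (0.14) was -0.48, and YTHDC1 experiment 2 minus ZFC3H1 (-0.75) was 0.89. For Chac1 with dTAG+Dox, METTL3 (0.49) minus ZFC3H1 (-0.77) was 1.26 and YTHDC1 experiment 2 (0.21) minus ZFC3H1 was 0.98. Most of the METTL3 mean came from clone C3 (1.55), with G4, H1 and H5 at 0.03, 0.21 and 0.19. For Phgdh with dTAG+Dox, METTL3 (0.38) exceeded ZCCHC8 by 0.67, YTHDC1 experiment 1 by 0.74, YTHDC1 experiment 2 by 0.63 and ZFC3H1 by 0.70. For Slc7a11 with dTAG, ZCCHC8 (-0.40) minus YTHDC1 experiment 2 (0.35) was -0.75, while YTHDC1 experiment 1 (0.45) and experiment 2 exceeded ZFC3H1 (-0.67) by 1.13 and 1.02. For Slc7a11 with dTAG+Dox, METTL3 (0.55) exceeded ZCCHC8 (-0.56) by 1.11, and ZCCHC8 minus YTHDC1 experiment 2 (0.27) was -0.84.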

How the results depend on the processing

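Counts are of the 10 genes called, and the cause of each change was not tested unless stated. No gene called in a comparison changed sign under any alternative, and a pseudocount of 0.25 changed no count beyond 1.5 times. Slc7a11 and Chac1 rest on few reads, and the degron lines other than METTL3 on 2 clones, which limits what could be detected.

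Without the filter on low values (more genes tested), METTL3 with dTAG had 0 called (1 in the report), YTHDC1 experiment 1 had 0 for Dox (1) and 1 for dTAG+Dox against dTAG (2), ZCCHC8 had 0 for Dox (1), YTHDC1 experiment 2 had 3 for dTAG (5), 2 for dTAG+Dox (5) and 1 for dTAG+Dox against dTAG (2), and ZFC3H1 had 0 for dTAG (2, where Pck2 and Psat1 both had an adjusted p of 0.0783). With median-ratio scaling METTL3 with dTAG had 2 called, Dox had 0 in YTHDC1 experiment 1 and 0 in ZCCHC8, and dTAG+Dox against dTAG had 1 in YTHDC1 experiment 1. By edgeR on recovered reads METTL3 with dTAG had 2, YTHDC1 experiment 1 had 1 for dTAG+Dox against dTAG, and ZCCHC8 had 0 for Dox.

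With only the groups compared in the fit, D395A XX with dTAG had 1 called (0 in the report without the block) where 12.8% of all genes were called, METTL3 with dTAG 0 (1) where 21.2% were, YTHDC1 experiment 1 had 6 for dTAG+Dox (3) where 38.1% were and 7 for dTAG+Dox against dTAG (2) where 34.9% were, ZCCHC8 had 4 for Dox (1) where 17.1% were, and ZFC3H1 had 6 for dTAG (2) where 6.35% were and 6 for dTAG+Dox (1) where 15.9% were.

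Without the clone as a block, where differences between clones enter the error, METTL3 with dTAG had 0. YTHDC1 experiment 1 then had 1 for dTAG and 0 for dTAG+Dox, Dox and dTAG+Dox against dTAG, ZCCHC8 had 2 for dTAG, 3 for dTAG+Dox, 0 for Dox and 0 for dTAG+Dox against dTAG, YTHDC1 experiment 2 had 0 in these 4 comparisons, and ZFC3H1 had 0 for dTAG and 0 for dTAG+Dox. For dTAG the share of all genes called was then 8.2% (METTL3), 5.27% and 0.168% (YTHDC1 experiments 1 and 2), 18% (ZCCHC8) and 0% (ZFC3H1).

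In the transgene lines the fit with the experiment as a replicate block, against 0 called without it, gave 5 for D395A XX with dTAG and 3 with dTAG+Dox, where 37.5% and 29.3% of all genes were called. D395A XiO had 3 with dTAG, 4 with dTAG+Dox and 1 for dTAG+Dox against dTAG, where 34.4%, 31.1% and 14.3% were. With this block, the effect of D395A minus WT had 3 in XX cells (28.2%) and 4 in XiO cells (28.7%), WT XX had 1 for dTAG+Dox against dTAG (3.9%), and WT XiO had 2 for Dox (12%) and 1 for dTAG+Dox against dTAG (9.59%). This block changed no other call in the transgene lines.

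Leaving out each clone gave 0 to 2 called for METTL3 with dTAG. In YTHDC1 experiment 1 it gave 1 to 3 for dTAG, 1 for dTAG+Dox, 0 for Dox and 0 for dTAG+Dox against dTAG. In ZCCHC8 it gave 4 to 7 for dTAG, 4 for dTAG+Dox, 0 to 1 for Dox and 3 to 4 for dTAG+Dox against dTAG, and 1 to 3 for ZCCHC8 minus YTHDC1. Leaving out each library gave, in YTHDC1 experiment 2, 1 to 5 for dTAG, 1 to 3 for dTAG+Dox, 0 for Dox and 1 for dTAG+Dox against dTAG, and in ZFC3H1 0 to 1 for dTAG, 0 to 2 for dTAG+Dox and 0 to 1 for dTAG+Dox against dTAG. It gave 0 in each transgene comparison.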
